A study of Mus musculus with 10 samples.

Results

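Imprinted genes, which mammals express mainly from the copy inherited from 1 parent, were followed through 4 sorted populations of differentiating mouse embryonic stem cells (mESCs). The members are 34 genes of 17 imprinted domains, taken from the count tables by their stable Ensembl identifier and their GENCODE M21 symbol. Of these, 32 had a row among the 38924 identifiers, and Kcnq1ot1 and Snrpn, whose current identifiers matched no row, were not analysed here. By textbook knowledge 13 of the 34 are expressed from the maternal copy, 20 from the paternal copy, and Gnas from either copy depending on the transcript. On the mm10 build 16 of them lie on chromosome 7, 5 on chromosome 12 and 4 on chromosome 6. By annotation 28 are protein-coding and the others are long non-coding, antisense or processed transcripts.

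In an imprinted domain, methylation laid down in only the egg or only the sperm marks a control region, and the genes around it are then read from 1 parental copy. The mark is kept through cell division by Dnmt1 and by KRAB zinc finger proteins such as Zfp57 that bind it in the early embryo. Many of these genes govern the growth of the embryo and placenta, with Grb10, Cdkn1c, Phlda2 and H19 known to restrain growth and several paternally expressed genes to promote it. The counts hold no information on the parental copy, so imprinting itself was not measured, only the total level of each transcript.

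All samples came from day 5 of differentiation of 1 mESC line, in which the Foxa2 locus also drives a truncated human CD4 that marks living Foxa2-expressing cells. The cells had been maintained in 2i medium. Cardiac mesoderm (CM) was sorted as Kdr+Pdgfra+ cells and divided by human CD4 into Foxa2+ CM (n = 3) and Foxa2- CM (n = 3), and the haematopoietic mesoderm (n = 2) consisted of cells with high Kdr (Flk1) of the same kind of culture. These cultures received BMP4, VEGF and 8 ng/ml of Activin A, and those that gave the Foxa2-hCD4+ endoderm (n = 2) received 75 ng/ml of Activin A. The labels do not say that samples of a group were separate differentiations, so p-values measure only the spread between these samples, which may be technical.

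Counts on genes totalled 10926284 to 17470126 per sample, and 3 counts, taken as the smallest detectable signal, stood at 0.172 to 0.275 CPM (counts divided by library size scaled with TMM factors), a floor that covers counting error only. Endoderm markers were called higher in endoderm for 9 of 10 genes against Foxa2- CM and 8 against Foxa2+ CM. Haemato-endothelial markers were called higher in haematopoietic mesoderm for 8 of 10 against Foxa2- CM and 6 against Foxa2+ CM. With DESeq2, another test, 6 and 4 of the haemato-endothelial markers were called. The lists hold Foxa2 and Kdr, by which the cells had been sorted, so these 2 genes are no independent check. The CM samples numbered 3 stood apart by the share of genes at least 2-fold apart. In Foxa2+ CM it was 0.49% between numbers 1 and 2, 1.97% between 2 and 3 and 3.44% between 1 and 3. In Foxa2- CM it was 0.53%, 4.04% and 5.49%. By chi-square per degree of freedom against sampling noise, the same pairs gave 3.72, 11.4 and 13.2 in Foxa2- CM. In Foxa2+ CM they gave 5.51, 5.03 and 10.45, so number 3 was no further from number 2 than number 1 was. The counts of calls are also given without the samples numbered 3. Foxa2 itself stood at 20.01, 16.01 and 3.49 CPM in samples 1, 2 and 3 of Foxa2+ CM, whereas Foxa2- CM held 0.872 to 2.54 CPM. In sorted bulk samples, fewer cells that express a gene and less RNA per cell cannot be told apart.

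A gene was called when edgeR's quasi-likelihood test gave a Benjamini-Hochberg adjusted p under 0.05 over all genes tested and the change was at least 2-fold. The same 29 members passed the expression filter in both fits, and 13 of them were called in at least 1 of the 6 pairwise comparisons. Where a fit left out 1 sample of endoderm or of haematopoietic mesoderm, the lone sample of that group was assumed to vary like the other groups, which supply the spread. Dcn, Slc22a18 and Ascl2 did not pass the filter. Dcn, a matrix proteoglycan gene, had 0 counts in all 8 mesoderm samples and 8 and 4 counts in the endoderm samples. Slc22a18, a transporter gene beside Cdkn1c, had 0 to 15 counts. Ascl2, a transcription factor gene of trophoblast, had 33 counts in endoderm sample 2 and 1 to 8 in the other 9 samples.

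**Figure D1:**
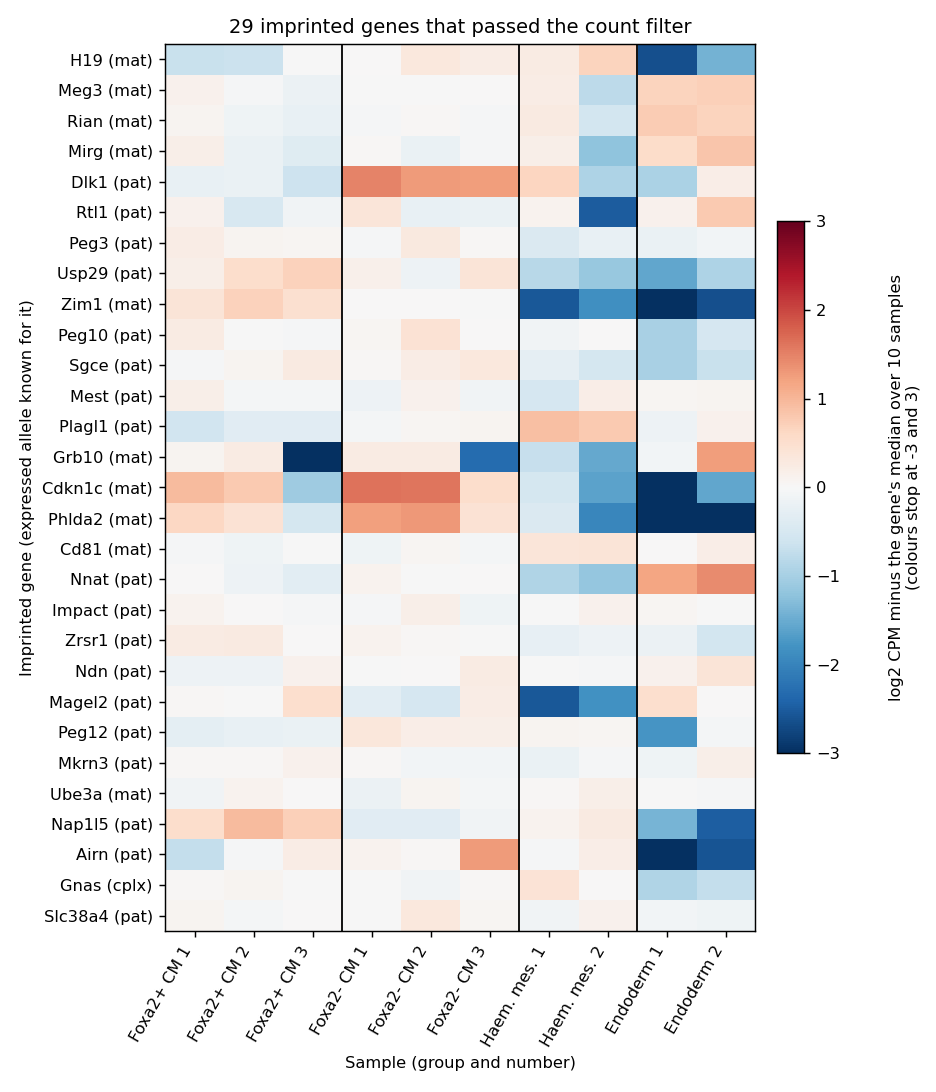
Rows are the 29 imprinted genes that passed the filter, with the parental copy they are known to be expressed from, and columns are the 10 samples. Colour gives log2 CPM minus the gene's median over the 10 samples. H19, Zim1, Cdkn1c, Phlda2, Nap1l5 and Airn are blue in both endoderm samples, Nnat is red there, and Grb10 is blue in both CM samples numbered 3.

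Levels between genes were compared per length, as CPM per kilobase of exon. In Foxa2+ CM the highest member was Peg10, a retrotransposon-derived gene needed in the placenta, at 106 CPM per kilobase. Peg3, a zinc finger gene, stood at 90.6 and Slc38a4, an amino acid transporter gene, at 83.2 CPM per kilobase there. The deubiquitinase gene Usp29 stood at 0.467 CPM per kilobase in the same group. In endoderm Slc38a4 was first at 76.9 CPM per kilobase, with Peg3 at 75.8 and Peg10 at 61.3. The order of Slc38a4 and Peg3 in endoderm was not tested. Peg10, Peg3, Slc38a4 and H19 reached over 1 count per exonic base in at least 1 sample, with a highest value of 1.79 for Peg10. Among the 23239 genes with at least 1000 exonic bases, 1.19% did so. Because the authors removed duplicates from single-end reads, at most 2 counts per base can remain, which may compress differences of these 4 genes.

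Promoter sequences show which members hold a CpG-rich start and which hold the hexamer TGCCGC, the methylated core that Zfp57 binds. RefSeq promoters (GRCm38.p6, 250 bases before to 50 after each start) were used for 27 of the 34 members, 39 promoters in all. The other 7 members, H19, Rtl1, Peg10, Sgce, Cdkn1c, Impact and Dcn, were not included, so the promoter values of the members do not cover them. The most CpG-rich promoter of a member held a median of 13 CpGs, and that of all 27025 genes a median of 8. TGCCGC was searched on both strands and was found in a promoter of 8 of the 27 members (29.6%) and of 13.1% of all genes, and in 11.6% of all 32851 promoters. The 8 members were Grb10, Meg3, Mest, Nap1l5, Nnat, Plagl1, Snrpn and Zim1. A match is a description of letters, and no binding or methylation was measured. Shown here are both promoters of Grb10, which hold 45 and 9 CpGs and whose transcripts the gene counts do not separate, and those of Phlda2 (26 CpGs), Nnat (17), Nap1l5 (17) and Dlk1 (9), members that carry the comparisons. Capitals mark CpG dinucleotides. The label CpG-poor is meant only relative to the other Grb10 promoter, since 54.2% of all promoters hold fewer CpGs than its 9. The windows are chr11:12037371-12037670 and chr11:12027922-12028221 for Grb10, chr7:143502475-143502774 for Phlda2 and chr6:58907077-58907376 for Nap1l5, all 4 on the minus strand, and chr2:157559828-157560127 for Nnat and chr12:109452573-109452872 for Dlk1 on the plus strand.
Grb10, CpG-rich promoter: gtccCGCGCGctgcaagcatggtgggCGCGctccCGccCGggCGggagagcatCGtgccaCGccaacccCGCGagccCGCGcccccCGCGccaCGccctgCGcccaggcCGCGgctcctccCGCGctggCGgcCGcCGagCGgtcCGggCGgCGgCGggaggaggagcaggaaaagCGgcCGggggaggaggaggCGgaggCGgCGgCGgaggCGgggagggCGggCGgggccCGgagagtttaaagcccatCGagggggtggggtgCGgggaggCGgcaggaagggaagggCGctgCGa
Grb10, CpG-poor promoter: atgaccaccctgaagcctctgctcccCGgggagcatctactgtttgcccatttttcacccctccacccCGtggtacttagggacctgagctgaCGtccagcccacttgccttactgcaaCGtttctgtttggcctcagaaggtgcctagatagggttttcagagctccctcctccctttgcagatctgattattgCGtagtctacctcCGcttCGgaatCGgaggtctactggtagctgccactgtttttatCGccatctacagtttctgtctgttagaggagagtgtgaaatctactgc
Phlda2: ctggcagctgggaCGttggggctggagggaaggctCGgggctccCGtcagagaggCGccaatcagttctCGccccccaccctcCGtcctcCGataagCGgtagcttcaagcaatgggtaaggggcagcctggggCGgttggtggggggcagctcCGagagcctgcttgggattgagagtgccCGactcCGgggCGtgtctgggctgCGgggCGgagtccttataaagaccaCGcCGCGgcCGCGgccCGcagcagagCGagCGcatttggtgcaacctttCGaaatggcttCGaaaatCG
Nnat: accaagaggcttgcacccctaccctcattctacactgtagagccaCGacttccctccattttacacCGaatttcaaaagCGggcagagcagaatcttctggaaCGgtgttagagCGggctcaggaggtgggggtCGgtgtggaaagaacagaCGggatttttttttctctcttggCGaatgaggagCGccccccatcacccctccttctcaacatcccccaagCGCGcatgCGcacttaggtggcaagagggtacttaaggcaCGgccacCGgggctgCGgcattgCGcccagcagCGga
Nap1l5: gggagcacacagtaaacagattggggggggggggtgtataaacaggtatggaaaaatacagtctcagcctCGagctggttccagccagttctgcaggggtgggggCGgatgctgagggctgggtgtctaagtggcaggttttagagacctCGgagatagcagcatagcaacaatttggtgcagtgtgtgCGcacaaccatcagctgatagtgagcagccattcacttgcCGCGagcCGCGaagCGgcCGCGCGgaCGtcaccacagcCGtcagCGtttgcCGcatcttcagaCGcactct
Dlk1: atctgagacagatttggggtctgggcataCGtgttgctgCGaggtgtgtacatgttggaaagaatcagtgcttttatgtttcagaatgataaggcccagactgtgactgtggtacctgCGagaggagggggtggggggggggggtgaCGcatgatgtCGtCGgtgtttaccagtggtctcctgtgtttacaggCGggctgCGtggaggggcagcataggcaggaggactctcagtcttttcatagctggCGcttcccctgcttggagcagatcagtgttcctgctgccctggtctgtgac

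Endoderm was set against CM to ask how the members differ between germ layers. Against Foxa2+ CM 8 of the 29 members were called, 1 higher and 7 lower in endoderm, where 18.7% of the 16180 genes tested were called, 10.2% higher and 8.49% lower. Against Foxa2- CM 10 members were called, 1 higher and 9 lower, where 17% of genes were called, 9.18% higher and 7.81% lower. With no fold limit 14 and 15 members passed the adjusted p, where 35% and 30.1% of genes did. With both CM samples numbered 3 left out 8 and 8 members were called, where 17.8% and 15.6% of genes were. Both comparisons share the endoderm samples. The median log2 fold change of the members was -0.03 against Foxa2+ CM and -0.23 against Foxa2- CM, and that of all genes was 0.01 in both. Groups did not overlap for 20 of 29 members against Foxa2+ CM, where 63.6% of all genes did not, and for 19 against Foxa2- CM, where 57.6% did not. Of the 10 maternally expressed members tested, 4 were called lower in endoderm in each of these comparisons, and of the 18 paternally expressed members 3 were called lower against Foxa2+ CM and 5 against Foxa2- CM.

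Phlda2, a maternally expressed gene that restrains placental growth, had the largest fold change in both comparisons. It lies in the Kcnq1 domain on chromosome 7 of mm10 from 143501545 to 143503150. It stood at 34.3, 29.9 and 15.5 CPM in Foxa2+ CM, at 52.5, 54.6 and 29.9 CPM in Foxa2- CM, at 16.6 and 5.74 CPM in haematopoietic mesoderm and at 1.303 and 1.42 CPM in endoderm. Both endoderm samples lay below all 8 others. Phlda2 fell in endoderm, with log2 fold changes of -4.27 against Foxa2+ CM (SE 0.62, adjusted p = 0.000713) and -5.06 against Foxa2- CM (SE 0.63, adjusted p = 0.000368).

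Cdkn1c, the maternally expressed cell-cycle inhibitor gene of the same domain, spread more between samples. It stood at 20.1, 17.7 and 4.96 CPM in Foxa2+ CM, at 32.04, 31.6 and 14.9 CPM in Foxa2- CM, at 7.14 and 3.38 CPM in haematopoietic mesoderm and at 1.303 and 3.51 CPM in endoderm. In endoderm it fell by 2.54 against Foxa2+ CM (SE 0.71, adjusted p = 0.0209) and by 3.42 against Foxa2- CM (SE 0.73, adjusted p = 0.00679) on the log2 scale. Neither call on Cdkn1c held without endoderm sample 1 (adjusted p = 0.139 and 0.0611), and the first was also lost without Foxa2+ CM sample 1 (adjusted p = 0.0508) or sample 2 (adjusted p = 0.05498). Gm44732 on the other strand shares 30.6% of its exonic bases, and whether the counting used strand is not given in the sources used here. Cd81, a tetraspanin gene at the edge of the domain, stood at 83.8 to 119.9 CPM in all 10 samples and was not called in any comparison.

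H19, the maternally expressed non-coding RNA of the H19-Igf2 domain, lies on chromosome 7 from 142575529 to 142578143. It stood at 102, 104 and 162 CPM in Foxa2+ CM, at 164, 202 and 189.7 CPM in Foxa2- CM, at 193 and 259.9 CPM in haematopoietic mesoderm and at 26.3 and 61.2 CPM in endoderm. Both endoderm samples were the lowest. H19 was lower in endoderm by a log2 fold change of -1.48 against Foxa2+ CM (SE 0.33, adjusted p = 0.00769) and -2.07 against Foxa2- CM (SE 0.34, adjusted p = 0.00173). It reached up to 1.37 counts per exonic base, near the limit that duplicate removal sets. Igf2, the paternally expressed growth factor gene of the same domain, was also lower in endoderm, at 9.77 and 24.1 CPM against 106 to 295 CPM in CM (log2 fold changes of -3.01 and -3.96).

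Zim1, a maternally expressed zinc finger gene of the Peg3 domain, was low in endoderm and in haematopoietic mesoderm alike. It stood at 61.3, 76.6 and 65.6 CPM in Foxa2+ CM, at 47.6, 47.1 and 47.01 CPM in Foxa2- CM, at 8.08 and 13.1 CPM in haematopoietic mesoderm and at 5.86 and 7.52 CPM in endoderm. The 4 non-cardiac samples all lay below the 6 CM samples. Against Foxa2+ CM its log2 fold change was -3.34 in endoderm (SE 0.22, adjusted p = 9.14e-06) and -2.68 in haematopoietic mesoderm (SE 0.21, adjusted p = 9.58e-05). Against Foxa2- CM it was -2.81 (SE 0.22, adjusted p = 2.55e-05) and -2.16 (SE 0.20, adjusted p = 0.000253).

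Usp29, a paternally expressed gene of the same domain, was also low in both. Its values stood at 6.79, 8.73 and 9.804 CPM in Foxa2+ CM, at 6.68, 5.47 and 7.95 CPM in Foxa2- CM, at 3.38 and 2.75 CPM in haematopoietic mesoderm and at 2.05 and 3.18 CPM in endoderm. All 4 non-cardiac samples lay below the CM samples. It was called lower than Foxa2+ CM in endoderm (log2 fold change -1.69, SE 0.29, adjusted p = 0.00199) and in haematopoietic mesoderm (-1.46, SE 0.28, adjusted p = 0.00625). It was also called lower than Foxa2- CM in endoderm (-1.35, adjusted p = 0.00721), though not without endoderm sample 1 (adjusted p = 0.0682), and in haematopoietic mesoderm (-1.12, adjusted p = 0.0204). The latter call was lost without Foxa2- CM sample 1 (adjusted p = 0.0552), Foxa2- CM sample 3 (adjusted p = 0.0501) or haematopoietic mesoderm sample 2 (adjusted p = 0.0972), with both CM samples numbered 3 left out (adjusted p = 0.0651) and with only the 2 groups in the fit (adjusted p = 0.0526). Peg3, the paternally expressed gene after which the domain is named, stood at 823 to 1357 CPM and was not called in any comparison. The ratio of Zim1 to Peg3 in CPM ranged from 0.0347 to 0.0652 over the CM samples and from 0.00607 to 0.0138 over the other 4.

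**Figure D2:**
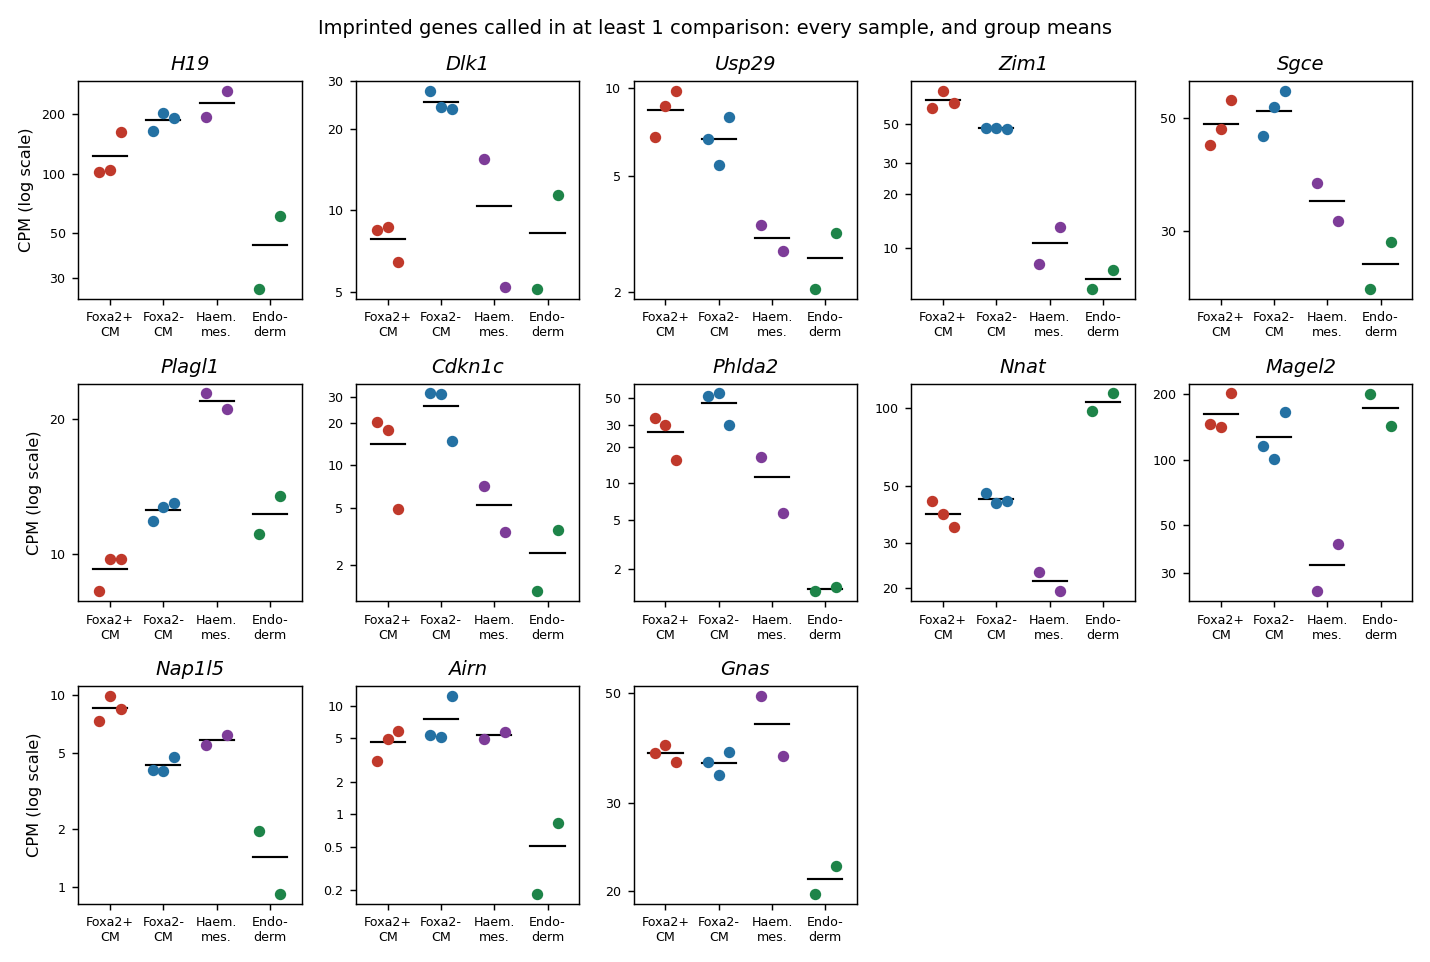
Points are the CPM of each sample, in the order of the sample numbers, and lines are group means, on a log scale, for the 13 imprinted genes called in at least 1 comparison. Phlda2, Airn and H19 are lowest in both endoderm samples, Magel2 and Nnat are lowest in both haematopoietic mesoderm samples, and Dlk1 is highest in the 3 Foxa2- CM samples.

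Nap1l5 and Airn, both paternally expressed, were lower in endoderm than in each mesoderm group. Nap1l5, an intronless gene of the nucleosome assembly protein family on chromosome 6, stood at 7.38, 9.94 and 8.45 CPM in Foxa2+ CM, at 4.08, 4.04 and 4.79 CPM in Foxa2- CM, at 5.52 and 6.22 CPM in haematopoietic mesoderm and at 1.95 and 0.919 CPM in endoderm. Its log2 fold change in endoderm was -2.59 against Foxa2+ CM (SE 0.32, adjusted p = 0.000311) and -1.59 against Foxa2- CM (SE 0.32, adjusted p = 0.00506). Airn, the non-coding RNA that runs antisense to Igf2r on chromosome 17, stood at 3.07, 4.91 and 5.86 CPM in Foxa2+ CM, at 5.38, 5.15 and 12.3 CPM in Foxa2- CM, at 4.89 and 5.74 CPM in haematopoietic mesoderm and at 0.186 and 0.836 CPM in endoderm. The endoderm values of Airn rest on 2 and 10 counts. Airn was lower in endoderm by log2 fold changes of -3.13 against Foxa2+ CM (SE 0.65, adjusted p = 0.00494) and -3.85 against Foxa2- CM (SE 0.64, adjusted p = 0.00192).

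Nnat, a paternally expressed gene for a small proteolipid, was the 1 member called higher in endoderm than in both CM groups. It stood at 43.5, 38.7 and 34.4 CPM in Foxa2+ CM, at 46.6, 42.6 and 43.5 CPM in Foxa2- CM, at 23.1 and 19.4 CPM in haematopoietic mesoderm and at 97.5 and 114 CPM in endoderm. The samples fell into 3 levels without overlap, with endoderm highest, CM between and haematopoietic mesoderm lowest. Nnat rose in endoderm with log2 fold changes of 1.45 against Foxa2+ CM (SE 0.12, adjusted p = 3.68e-05) and 1.26 against Foxa2- CM (SE 0.12, adjusted p = 9.06e-05). In haematopoietic mesoderm it was lower than in Foxa2- CM (log2 fold change -1.06, SE 0.13, adjusted p = 0.000846), a change under 2-fold without haematopoietic mesoderm sample 2 (-0.96).

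Sgce, a paternally expressed sarcoglycan gene that shares a control region with Peg10, stood at 44.3, 47.7 and 54.3 CPM in Foxa2+ CM, at 46.01, 52.5 and 56.5 CPM in Foxa2- CM, at 37.4 and 31.4 CPM in haematopoietic mesoderm and at 23.1 and 28.5 CPM in endoderm. It was called lower in endoderm than in Foxa2- CM at the edge of the fold limit (log2 fold change -1.002, SE 0.15, adjusted p = 0.001001). Without endoderm sample 1 (-0.89), without Foxa2- CM sample 3 (-0.93) or with both CM samples numbered 3 left out (-0.94) it was not. Peg10 itself was 344 and 473 CPM in endoderm against 657 to 901 CPM in CM, a difference under 2-fold that passed the adjusted p alone (log2 fold change -0.79 against Foxa2+ CM and -0.89 against Foxa2- CM).

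In the Dlk1-Dio3 domain on chromosome 12, paternally expressed coding genes and maternally expressed non-coding RNAs stand side by side. Dlk1, which encodes a Notch-like membrane protein, was the 1 member called between the CM groups, where 3.01% of 15284 genes were called, 1.49% higher and 1.52% lower in Foxa2+ CM. It stood at 8.47, 8.67 and 6.42 CPM in Foxa2+ CM, at 27.6, 24.1 and 23.7 CPM in Foxa2- CM, at 15.5 and 5.19 CPM in haematopoietic mesoderm and at 5.12 and 11.4 CPM in endoderm. The Foxa2- CM samples lay above all 7 others. Dlk1 was lower in Foxa2+ CM by a log2 fold change of -1.68 (SE 0.15, adjusted p = 0.00187), and this call held in each of the 6 fits that left out 1 CM sample. With all 10 samples in 1 model the log2 fold change was -1.68 and the adjusted p 0.0672. Against Foxa2- CM, endoderm was called lower (-1.60, SE 0.45, adjusted p = 0.0246), which was lost without endoderm sample 1 (adjusted p = 0.157), without Foxa2- CM sample 1 (adjusted p = 0.0594) or with both CM samples numbered 3 left out (adjusted p = 0.0506).

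The non-coding RNAs of the domain had other orders. Meg3 stood at 268, 238 and 214 CPM in Foxa2+ CM, at 241, 240.1 and 247 CPM in Foxa2- CM, at 286 and 142 CPM in haematopoietic mesoderm and at 390.1 and 399 CPM in endoderm. Its log2 fold change between the CM groups was -0.01 (SE 0.09, adjusted p = 0.968). Rian, a host of small nucleolar RNAs, stood at 192 to 238 CPM in CM and 382 and 358 CPM in endoderm. In endoderm Meg3 was higher than in Foxa2+ CM by a log2 fold change of 0.72 (adjusted p = 0.0324) and Rian by 0.80 (adjusted p = 0.00985), both under 2-fold. Over the 10 samples the ratio of Rian to Meg3 in CPM stayed between 0.872 and 1.08, while that of Dlk1 to Meg3 ran from 0.0131 to 0.115.

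Haematopoietic mesoderm sample 2 was lower than sample 1 for each of the 5 members of the domain. Meg3 differed 2.02-fold between these samples, Rian 1.78-fold and Dlk1 2.99-fold. Mirg, the host of a microRNA cluster, stood at 45.1, 34.8 and 30.9 CPM in Foxa2+ CM, at 40.6, 34.6 and 38.8 CPM in Foxa2- CM, at 45.0 and 17.2 CPM in haematopoietic mesoderm and at 57.8 and 70.3 CPM in endoderm. Rtl1, a retrotransposon-derived coding gene, stood at 5.33, 3.53 and 4.56 CPM in Foxa2+ CM, at 6.31, 4.203 and 4.28 CPM in Foxa2- CM, at 5.26 and 0.865 CPM in haematopoietic mesoderm and at 5.398 and 8.44 CPM in endoderm. Sample 2 was the lowest of all 10 for both. Marker lists also differed between sample 2 and sample 1. The 10 haemato-endothelial markers summed to 2323 against 1953 CPM, with 7 of 10 higher and 3 lower in sample 2, and the 8 pluripotency markers to 58.9 against 162 CPM, with 2 higher and 6 lower. The 10 cardiac mesoderm markers summed to 959 against 749 CPM, with 6 higher and 4 lower in sample 2. The 8 trophoblast markers summed to 323 against 158 CPM, with 6 higher and 2 lower. Of the trophoblast sums Eomes, also a gene of early mesendoderm, made up 205 and 80.9 CPM. Their part in the result was not tested. Without haematopoietic mesoderm sample 1, a fit that rests on the low sample 2 alone with its spread taken from the other groups, Mirg (-1.14), Rtl1 (-2.50) and Dlk1 (-2.27) were called lower in haematopoietic mesoderm than in Foxa2- CM on the log2 scale. With both samples Mirg stood at -0.28, Rtl1 at -0.66 and Dlk1 at -1.27, none of them called.

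Haematopoietic mesoderm was then compared with each CM group, a comparison within mesoderm. Against Foxa2+ CM 4 of 29 members were called, 1 higher and 3 lower, where 11.4% of 16180 genes were called, 5.17% higher and 6.25% lower. Against Foxa2- CM 6 were called, all lower, where 11.6% of genes were called, 5.24% higher and 6.4% lower. With no fold limit 8 and 10 members passed the adjusted p, where 22.8% and 21.6% of genes did. The comparisons share the haematopoietic mesoderm samples. Groups did not overlap for 13 members against Foxa2+ CM, where 50% of genes did not, and for 15 against Foxa2- CM, where 46% did not. The median log2 fold change of the members was -0.16 and -0.22, and that of all genes 0.03 and 0.02. Without haematopoietic mesoderm sample 2, 2 members were called against Foxa2- CM, where 10.2% of genes were. Against Foxa2+ CM, 8 were called without haematopoietic mesoderm sample 1, where 11.3% of genes were, and 7 without Foxa2+ CM sample 3, where 10.6% were. Both fits without a haematopoietic mesoderm sample rest on 1 sample of that group. With both CM samples numbered 3 left out 7 members were called against Foxa2+ CM and 5 against Foxa2- CM, where 11.3% and 11.5% of genes were.

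Magel2, a paternally expressed gene of the Snrpn domain whose protein acts in endosomal recycling, was lower in haematopoietic mesoderm than in the other groups. It stood at 146, 142 and 202 CPM in Foxa2+ CM, at 115, 100.3 and 166 CPM in Foxa2- CM, at 24.6 and 40.6 CPM in haematopoietic mesoderm and at 201 and 143 CPM in endoderm. Both haematopoietic mesoderm samples lay below all 8 others. Magel2 fell in haematopoietic mesoderm by 2.33 against Foxa2+ CM (SE 0.30, adjusted p = 0.001001) and by 1.97 against Foxa2- CM (SE 0.30, adjusted p = 0.00205) on the log2 scale, and its log2 fold change in endoderm against haematopoietic mesoderm was 2.41 (SE 0.32, adjusted p = 0.000502). These 3 calls held under each alternative run, though the 1.5-fold limit and no fold limit reuse the same fit and could not end a call.

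Its neighbours within the Snrpn domain on chromosome 7 had other patterns. Ndn, a relative of Magel2 in the MAGE family, stood at 65.9 to 96.3 CPM and Mkrn3, a ubiquitin ligase gene, at 12.4 to 16.1 CPM over the 10 samples. Neither was called in any comparison. The ratio of Magel2 to Ndn in CPM was 0.338 to 0.569 in haematopoietic mesoderm and 1.36 to 2.52 in the other samples, while the ratio of Mkrn3 to Ndn stayed between 0.156 and 0.222. Peg12 stood at 20.4, 21.4 and 21.9 CPM in Foxa2+ CM, at 31.7, 28.8 and 28.2 CPM in Foxa2- CM, at 26.6 and 25.9 CPM in haematopoietic mesoderm and at 7.35 and 24.2 CPM in endoderm. It was not called, and its log2 fold change of -0.48 between the CM groups passed the adjusted p (adjusted p = 0.0215) but not 2-fold. Ube3a, a ubiquitin ligase gene that is maternally expressed in neurons, stood at 159.8 to 203 CPM and was not called. Its exons share 27.3% of their bases with other genes.

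Plagl1, a paternally expressed zinc finger gene that regulates other imprinted genes, was the 1 member called higher in haematopoietic mesoderm than in a CM group. It stood at 8.25, 9.77 and 9.75 CPM in Foxa2+ CM, at 11.9, 12.8 and 13.02 CPM in Foxa2- CM, at 22.9 and 21.1 CPM in haematopoietic mesoderm and at 11.1 and 13.5 CPM in endoderm. Both haematopoietic mesoderm samples lay above the other 8. The log2 fold change was 1.25 against Foxa2+ CM (SE 0.15, adjusted p = 0.000771) and 0.81 against Foxa2- CM (SE 0.15, adjusted p = 0.005697), the latter under 2-fold.

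Phlda2 and Cdkn1c were called lower in haematopoietic mesoderm than in Foxa2- CM, with log2 fold changes of -2.02 (SE 0.48, adjusted p = 0.0167) and -2.30 (SE 0.66, adjusted p = 0.0347). Both calls were lost without haematopoietic mesoderm sample 2 (adjusted p = 0.0622 and 0.155), and that on Cdkn1c also without Foxa2- CM sample 1 (adjusted p = 0.0901) or 2 (adjusted p = 0.0852). Against Foxa2+ CM their log2 fold changes were -1.23 (adjusted p = 0.0908) and -1.42 (adjusted p = 0.147). With both CM samples numbered 3 left out these were -1.53 (adjusted p = 0.0312) and -1.85 (adjusted p = 0.0204), both called. H19 in that fit was called higher in haematopoietic mesoderm than in Foxa2+ CM, by a log2 fold change of 1.12 (adjusted p = 0.04497), against 0.88 (adjusted p = 0.0638) with all samples.

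Endoderm and haematopoietic mesoderm differed in 7 of 29 members, 2 higher and 5 lower in endoderm, where 19.1% of 16180 genes were called, 11% higher and 8.11% lower. With no fold limit 11 members passed the adjusted p, where 32.6% of genes did. Groups did not overlap for 21 of 29 members, where 62.6% of genes did not. The median log2 fold change was -0.16 over the members and -0.00 over all genes. Nnat was higher in endoderm by a log2 fold change of 2.32 (SE 0.14, adjusted p = 8.66e-06), beside Magel2. Lower were Airn (-3.32, adjusted p = 0.00465), Phlda2 (-3.04, adjusted p = 0.00567), H19 (-2.36, adjusted p = 0.00107) and Nap1l5 (-2.03, adjusted p = 0.00165). Gnas, the gene of the stimulatory G protein alpha subunit with several imprinted transcripts, stood at 37.8, 39.2 and 36.3 CPM in Foxa2+ CM, at 36.3, 34.1 and 37.99 CPM in Foxa2- CM, at 49.3 and 37.3 CPM in haematopoietic mesoderm and at 19.7 and 22.5 CPM in endoderm. Its log2 fold change between endoderm and haematopoietic mesoderm was -1.04 (SE 0.15, adjusted p = 0.000706), under 2-fold without endoderm sample 1 (-0.96) or haematopoietic mesoderm sample 1 (-0.82).

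**Figure D3:**
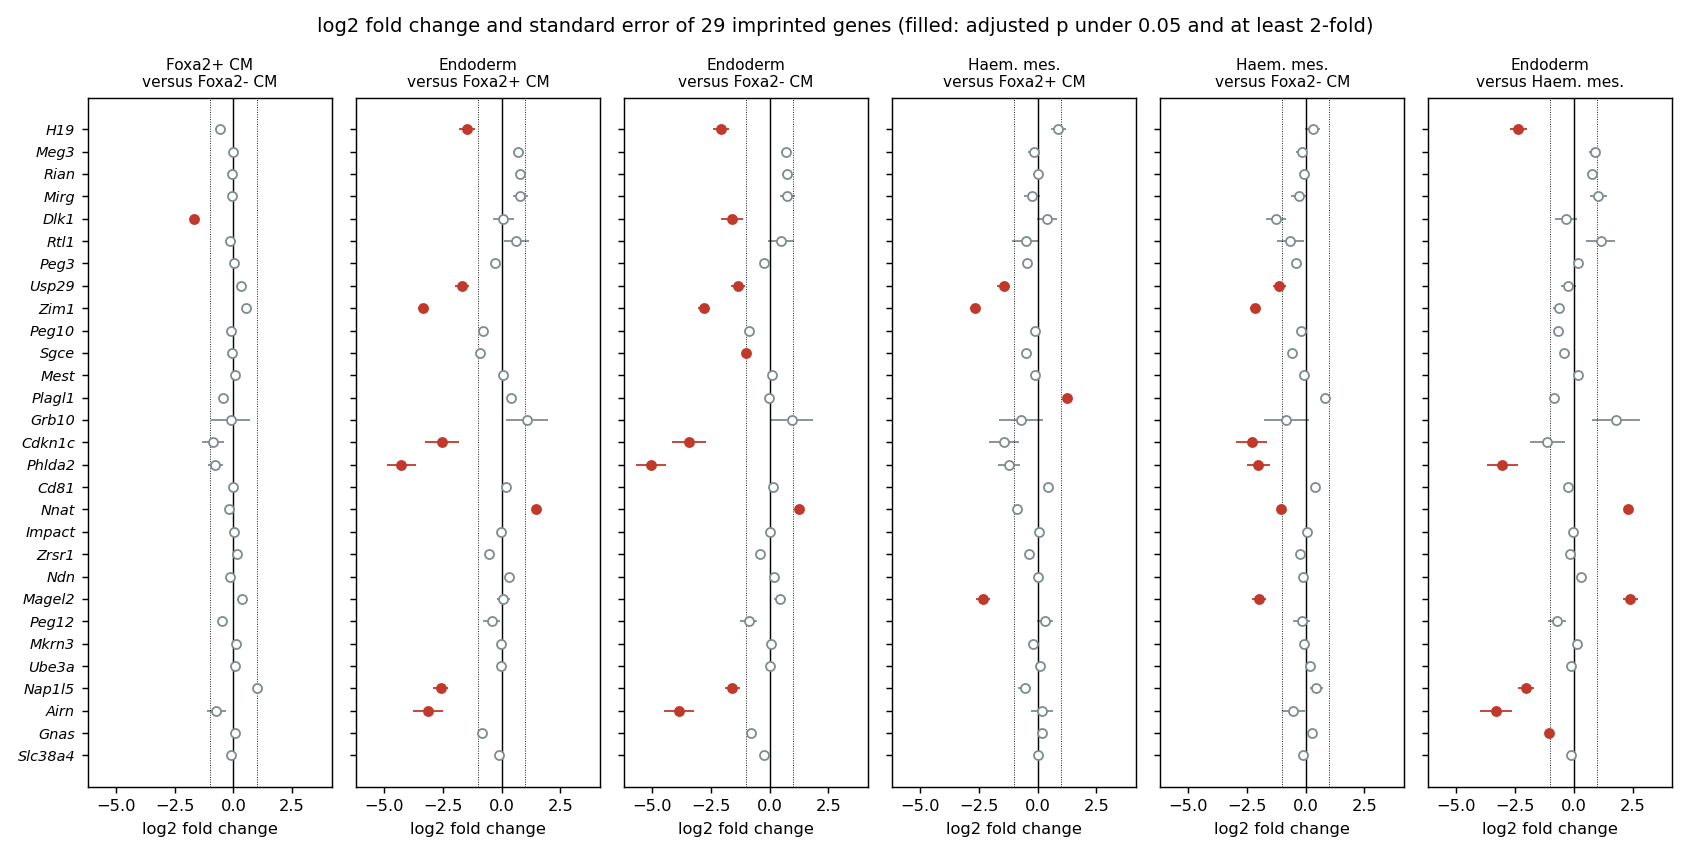
Points are the log2 fold changes of the 29 tested imprinted genes in the 6 comparisons, each named first group versus second group, with bars of 1 standard error. Filled points passed an adjusted p under 0.05 and 2-fold, and dotted lines mark 2-fold. Filled points number 1 between the CM groups, 8 and 10 for endoderm against CM, 4 and 6 for haematopoietic mesoderm against CM, and 7 for endoderm against haematopoietic mesoderm.

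Between the CM groups, samples did not overlap for 6 of 29 members, where 24% of genes did not, and the median log2 fold change of the members was -0.07. With no fold limit 4 members passed the adjusted p, Dlk1, Peg12, Nap1l5 and Zim1, where 6.48% of genes did. Nap1l5 was higher in Foxa2+ CM by a log2 fold change of 0.99 (SE 0.18, adjusted p = 0.0182), just under 2-fold, and was called with both CM samples numbered 3 left out (1.11, adjusted p = 5.40e-05). Zim1 was higher in Foxa2+ CM by 0.52 (SE 0.09, adjusted p = 0.0132). Phlda2 (-0.78, adjusted p = 0.222), Cdkn1c (-0.88, adjusted p = 0.406), H19 (-0.59, adjusted p = 0.103) and Airn (-0.73, adjusted p = 0.386) were not called. Without Foxa2- CM sample 3, Phlda2 was called lower in Foxa2+ CM (-1.01, adjusted p = 0.03101).

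Some members varied little over the 10 samples. Impact, a paternally expressed regulator of the amino acid starvation response on chromosome 18, stood at 236 to 292 CPM. Mest, a paternally expressed gene related to hydrolases, stood at 163 to 262 CPM, and 23.1% of its exonic bases overlap Copg2. Slc38a4 stood at 322 to 435 CPM. Zrsr1, an intronless splicing factor gene, was lower in endoderm than in Foxa2+ CM by a log2 fold change of -0.53 (adjusted p = 0.0119), at 35.6 and 27.6 against 40.5 to 48.8 CPM. None of these 4 was called in any comparison.

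Samples of a group were compared member by member, where the group averaged 20 counts or more. At least 2-fold between the highest and lowest sample were 3 of 29 members in Foxa2+ CM (4.23% of all genes), 3 of 29 in Foxa2- CM (6.19%), 5 of 26 in endoderm (4.47%) and 6 of 29 in haematopoietic mesoderm (10.1%). Without sample 3, no member was 2-fold apart in either CM group, where 0.49% and 0.53% of genes were.

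Grb10, a maternally expressed adaptor gene that dampens insulin and growth factor signalling, spread most between CM samples. It lies on chromosome 11 from 11930508 to 12038683. It stood at 38.9, 43.9 and 4.06 CPM in Foxa2+ CM, at 43.8, 43.7 and 7.38 CPM in Foxa2- CM, at 22.6 and 12.7 CPM in haematopoietic mesoderm and at 34.9 and 88.2 CPM in endoderm. Samples 1 and 2 of both CM groups lay close together, and number 3 was the lowest sample of each. Its log2 fold change between the CM groups was -0.12 (SE 0.82, adjusted p = 0.971). With SEs of 0.82 to 1.03, no comparison called Grb10.

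The pattern of the CM samples numbered 3 was described after the values were seen and was not tested. Sample 3 was 9.58-fold below the lower of samples 1 and 2 for Grb10 in Foxa2+ CM and 5.92-fold in Foxa2- CM. By the smaller of both folds Grb10 ranked 1 of 13257 genes. Cdkn1c, at 3.57-fold and 2.12-fold, ranked 29, and Phlda2, at 1.93-fold and 1.76-fold, ranked 64. At least 2-fold below in both groups were 32 genes (0.241%), among them the members Grb10 and Cdkn1c, and 54 genes (0.407%), no member among them, were at least 2-fold above.

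**Figure D4:**
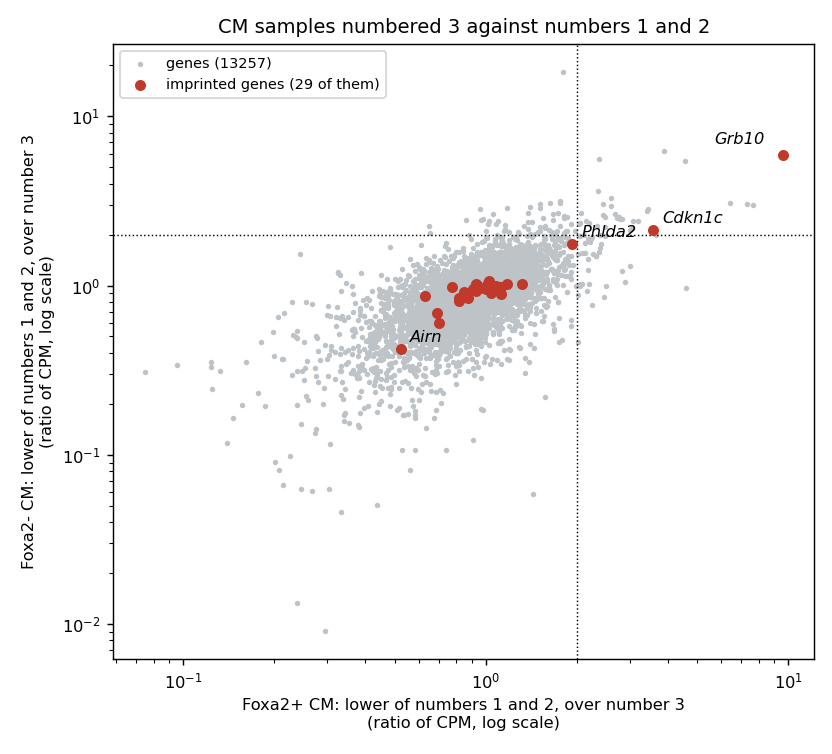
For each of 13257 genes that average at least 20 counts in both CM groups, the lower CPM of samples 1 and 2 was divided by the CPM of sample 3, in Foxa2+ CM (horizontal axis) and in Foxa2- CM (vertical axis), both on log scales. Red points are the 29 imprinted genes and dotted lines mark a ratio of 2, with Grb10 at 9.58 and 5.92 in the upper right.

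Summed marker lists differed in number 3 as well, some up and some down, but single markers did not all follow their sum. The 10 haemato-endothelial markers summed to 767, 789 and 959 CPM in samples 1, 2 and 3 of Foxa2+ CM, and to 694, 757 and 977 CPM in those of Foxa2- CM. Of these 10, 8 were highest in number 3 of Foxa2+ CM and 8 in number 3 of Foxa2- CM, and none was at 0. The 10 extraembryonic endoderm markers summed to 41.8, 90.4 and 110.4 CPM, then 30.9, 36.2 and 130.1 CPM, in the same order. Of these 10, 2 and 9 were highest in number 3, while 3 and 1 were lowest there. In Foxa2- CM samples 1 and 2, 2 and 3 of the 10 were at 0. The 8 pluripotency markers summed to 122, 134 and 107 CPM, then 233, 258 and 160.4 CPM, lowest in number 3 of both groups. Of the 8, 3 and 5 were lowest there, while 4 and 1 were highest there. The part of these lists in the Grb10 and Cdkn1c values was not tested.

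In endoderm the 5 members at least 2-fold apart were all lower in sample 1. Grb10 differed 2.53-fold between the endoderm samples, H19 2.33-fold, Peg12 3.296-fold, Dlk1 2.22-fold and Cdkn1c 2.69-fold. The summed haemato-endothelial markers were 52.3 and 105 CPM in these samples, the summed extraembryonic endoderm markers 32.02 and 65.8 CPM and the summed cardiac mesoderm markers 136 and 220.2 CPM. All 10 markers of each of the first 2 lists were lower in sample 1, where 2 of the extraembryonic endoderm markers were at 0. Of the 10 cardiac mesoderm markers, 5 were lower and 5 higher in sample 1. The 10 endoderm markers summed to 1271 and 1479 CPM, with 8 lower and 2 higher in sample 1. The 8 trophoblast markers summed to 472 and 476 CPM, with 6 lower and 2 higher, and the 8 pluripotency markers to 539 and 519 CPM, with 4 lower and 4 higher. Their part in the difference was not tested.

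The enzymes and factors that lay down and keep imprints were followed beside the members. Of 8 genes of the DNA methylation machinery, 1 was called higher and 1 lower in endoderm against each CM group. Of all genes 18.7% were called against Foxa2+ CM and 17% against Foxa2- CM. Dnmt3b, a de novo methyltransferase gene, stood at 581 and 519 CPM in endoderm and 234 to 275 CPM in CM, a difference of 1.12 on the log2 scale against Foxa2+ CM. Dnmt3l, a cofactor of de novo methylation, was lower in endoderm, at 2.14 and 1.504 against 4.16 to 8.903 CPM in CM (-1.82 against Foxa2+ CM), and lower in haematopoietic mesoderm (-2.03). In haematopoietic mesoderm against Foxa2- CM the demethylation genes Tet2 (1.02) and Tet3 (1.22) were called higher, where 5.24% of all genes were. Against Foxa2+ CM 0 of the 8 were called higher, where 5.17% of all genes were. Tet3 stood at 228 and 209 CPM in haematopoietic mesoderm and at 68.3, 78.7 and 134 CPM in Foxa2- CM samples 1, 2 and 3. Of the 9 tested factors that protect imprints, among them Zfp57, neither edgeR nor DESeq2 called any at 2-fold in the 6 comparisons. By edgeR 6 of the 9 had an unadjusted p under 0.05 in endoderm against Foxa2+ CM (45.2% of all genes), 6 against Foxa2- CM (41.2%) and 4 against haematopoietic mesoderm (42.2%). In haematopoietic mesoderm 3 had one against Foxa2+ CM (35.8% of all genes) and 2 against Foxa2- CM (34.2%), and between the CM groups 0 did (19.2%). Zfp57 stood at 101 and 109 CPM in endoderm and at 173 to 229 CPM in CM (log2 fold change -0.96 against Foxa2+ CM, adjusted p = 0.000256).

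Imprinted genes outside the 34 were described from a list of 45, of which 32 were tested between the CM groups and 35 otherwise. In endoderm 3 were called higher and 6 lower than Foxa2+ CM, and 5 and 5 against Foxa2- CM. Of all genes tested, 10.2% were called higher and 8.49% lower against Foxa2+ CM, and 9.18% and 7.81% against Foxa2- CM. Cobl, an actin nucleator gene, was higher in endoderm than in Foxa2+ CM by a log2 fold change of 4.43. Ampd3, an AMP deaminase gene (-5.38), and Qpct, a glutaminyl cyclase gene (-3.65), were lower there. Rasgrf1, a Ras exchange factor gene, had 0 counts in both endoderm samples and 6 to 18 in Foxa2+ CM. Ampd3 was the 1 gene of the list called between the CM groups, where 3.01% of all genes were. Foxa2+ CM held 20.2, 25.03 and 21.6 CPM of Ampd3 and Foxa2- CM 7.298, 6.34 and 11.1 CPM, a log2 fold change of 1.42 (adjusted p = 0.0107). In haematopoietic mesoderm 4 were called higher and 3 lower than Foxa2+ CM, where 5.17% and 6.25% of all genes were. Against Foxa2- CM they were 5 and 2, where 5.24% and 6.4% of all genes were called. In endoderm against haematopoietic mesoderm 3 were higher and 8 lower, where 11% and 8.11% of all genes were.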

How the data were processed

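RNA from 10 sorted samples was analysed, grouped by their labels. Per the methods, 50 nt single-end reads were mapped to mm10 (STAR 2.5.0a), stripped of duplicates (Picard) and counted per gene (HTSeq 0.6.0), and the authors tested with DESeq2. The authors deposited whole-number counts, not normalized. Reads on genes were 72.2 to 80.5% of unique reads, and rows without a gene (no feature, ambiguous), which hold the rest, were left out. GENCODE M21 (the same build) matched 37607 of 38924 identifiers. From the counts, TMM factors, CPM and quasi-likelihood tests (Benjamini-Hochberg adjustment) were computed with edgeR 4.0.16 in R 4.3.3, on the 6 CM samples between the CM groups and on all 10 otherwise, without a replicate block. SEs were derived from the log2 fold change and its F. Overlapping genes were not separated. The members and lists were chosen with earlier results of these data known. Members called in any comparison, or with samples of a group 2-fold apart at a mean of at least 20 counts, are given in every sample, the others by range. From other lists, up to 4 called genes with the largest change are named. No replicate pair agreed within sampling noise. On simulated counts with 200 changed genes the test recovered 96.5% in the CM fit (15284 genes, 6 false calls) and 81.5% for endoderm against haematopoietic mesoderm (16180 genes, 7 false calls). Alternatives were DESeq2 1.42.0, RLE size factors, no filter, other fold limits, a replicate block, other sample sets and leaving out each sample.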

Additional observations from a re-analysis of the deposited data

How the results depend on the processing

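Of 455 values of the 36 member calls under alternatives, 429 kept direction and call, 26 kept direction but lost the call and none reversed. The 429 include the 1.5-fold limit and no fold limit, which reuse the same fit, so a call could not be lost there. Leaving out 1 CM sample gave 1 to 3 member calls between the CM groups, where 0.943% to 4.7% of all genes were called. For endoderm it gave 7 to 8 against Foxa2+ CM (16.6% to 17.2%) and 9 to 10 against Foxa2- CM (15.1% to 15.9%). For haematopoietic mesoderm it gave 4 to 7 (8.68% to 10.6%) and 4 to 5 (8.95% to 11.8%). Counts ranged more widely in fits without an endoderm or haematopoietic mesoderm sample, which rest on 1 sample of that group. With all samples the comparisons gave 1, 8, 10, 4, 6 and 7 in this order, the last for endoderm against haematopoietic mesoderm. In the same order, a limit of 1.5-fold gave 2, 13, 14, 5, 8 and 11, where 4.58%, 24.1%, 21.6%, 15.4%, 15.3% and 24.3% of all genes were called. With no fold limit they were 4, 14, 15, 8, 10 and 11. Between the CM groups 0 members were called with all 10 samples in 1 model, where 1.16% of all genes were. Leaving out both CM samples numbered 3, an alternative chosen after seeing the data, gave 2 there (6.44% of all genes). The same alternative gave 7 for haematopoietic mesoderm against Foxa2+ CM (11.3%). The Grb10 log2 fold change between the CM groups, -0.12, reversed to 0.18 without Foxa2- CM sample 1, 0.18 without sample 2 and 0.41 without Foxa2+ CM sample 3, a range of -0.59 to 0.41. Cases of a member at least 2-fold apart within a group numbered 17, in 10 different members. There were 13 cases at a mean of at least 100 counts and 14 when 1 of the CM samples numbered 3 was left out. CM samples with the same number correlated at 0.501, 0.0931 and 0.594 in their deviations from the group means. Those with different numbers correlated at -0.571 to 0.316. The deviations of the 3 samples of a group sum to 0, so the low value for number 2 cannot decide on pairing. The labels do not say that a number marks a shared culture, and the main fits took no pairs. The replicate block gave 1, 8, 9, 7, 5 and 9 member calls, where 4.95%, 19.1%, 16.9%, 12.5%, 12.5% and 19.9% of all genes were called. It ended the calls on Sgce (-0.93, endoderm against Foxa2- CM) and Usp29 (-0.99, haematopoietic mesoderm against Foxa2- CM), both then under 2-fold, and added Grb10 and Mirg between endoderm and haematopoietic mesoderm and Cdkn1c, H19 and Phlda2 between haematopoietic mesoderm and Foxa2+ CM. Depth limits Dcn, Slc22a18, Ascl2 and, in endoderm, Airn.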
